A study of Homo sapiens with 5 samples.

Results

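Chemokines and their receptors were examined in H1 cells, an established human embryonic stem cell line, on day 30 after the start of differentiation. The set holds 67 of the 27139 genes in the deposited tables, chosen by symbol alone: the CCL, CXCL, CX3CL and XCL ligands (45 genes) and the CCR, CXCR, CX3CR, XCR and ACKR receptors (22 genes). The symbol rule used no measured value, though the set was chosen with earlier results of these data known. In the YAPi+Activin group (3 libraries), wild-type cells received an inhibitor of YAP, the coactivator that the Hippo pathway holds back, together with Activin, a TGF-beta family signal, with a labelled treatment time of 24 h. In the GiWi group (2 libraries), wild-type cells of the same line received an inhibitor of GSK3 and an inhibitor of Wnt/beta-catenin signalling, with a labelled treatment time of 48 h. Both groups were grown in TeSR medium and collected at day 30, so that the agents and the labelled time differed together and cannot be told apart. The comparison answers which chemokine and receptor transcripts differed between cultures made by the 2 protocols.

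Chemokines are small secreted proteins that steer the movement of cells along gradients, named CC, CXC, CX3C or XC by the spacing of their first conserved cysteines. They act through G protein-coupled receptors, while atypical receptors (ACKR) bind chemokines without G protein signalling and remove or redistribute them. CXCL12 is made by stromal cells and keeps blood stem cells and other CXCR4-bearing cells in place, and in the developing heart it takes part in the growth of the coronary vessels. Inflammatory chemokines such as CCL2, CCL3 and CXCL8 draw in monocytes and neutrophils, and macrophages both make them and carry receptors such as CCR1 and CX3CR1.

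The libraries held 43661243 to 48904372 exon counts. Replicate 3 of YAPi+Activin stood apart: its log2 CPM correlated at r = 0.982 and 0.983 with replicates 1 and 2 over genes (not independent replicates), while replicates 1 and 2 correlated at 0.999. Cardiomyocyte markers, summed over 15 genes, came to 2664 to 6033 CPM in YAPi+Activin, lowest in replicate 3, against 7145 to 7306 CPM in GiWi. By the test described next, 3 of the 15 fell, 2 rose and 10 did not pass. Of all tested genes, 26.9% fell and 30.2% rose. Without replicate 3 of YAPi+Activin, 9 of the 15 fell and 4 rose. Changes below are log2 of YAPi+Activin over GiWi ± SE from edgeR's quasi-likelihood test, with Benjamini-Hochberg adjustment over the 17634 genes that passed the count filter, and a gene rose or fell where its adjusted p was under 0.05. The labels do not state that each library is a culture of its own, so the p-values speak only of the spread among these 5 libraries, and that spread may be technical. CPM, counts scaled to a common library total with TMM factors, are used for changes. FPKM, which are also divided by transcript length, are used for levels between genes. In libraries made from whole cultures, fewer cells of a type and less RNA per cell cannot be told apart.

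CXCL12 was the most abundant chemokine transcript in GiWi, and CCL2 in YAPi+Activin replicates 1 and 2. Of the summed FPKM of the 45 ligands, CXCL12 made up 11.7, 11.6 and 9.73% in YAPi+Activin replicates 1 to 3, against 77.1 and 76.7% in GiWi. CCL2 (MCP-1, which attracts monocytes) made up 43.5, 43.9 and 30.5% in YAPi+Activin, against 9.34 and 9.503% in GiWi. The summed ligand FPKM itself was 154.7, 149.6 and 184.3 in YAPi+Activin, against 142.1 and 141.5 in GiWi. The 41 ligands other than CXCL12, CXCL14, CCL2 and CXCL16 made up 24.3, 24.2 and 17.7% in YAPi+Activin, against 3.50 and 3.163% in GiWi. Ligands listed at 1 FPKM or more numbered 13, 15 and 16 in YAPi+Activin libraries, against 5 and 5 in GiWi libraries. These shares are descriptions and were not tested.

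**Figure D1:**
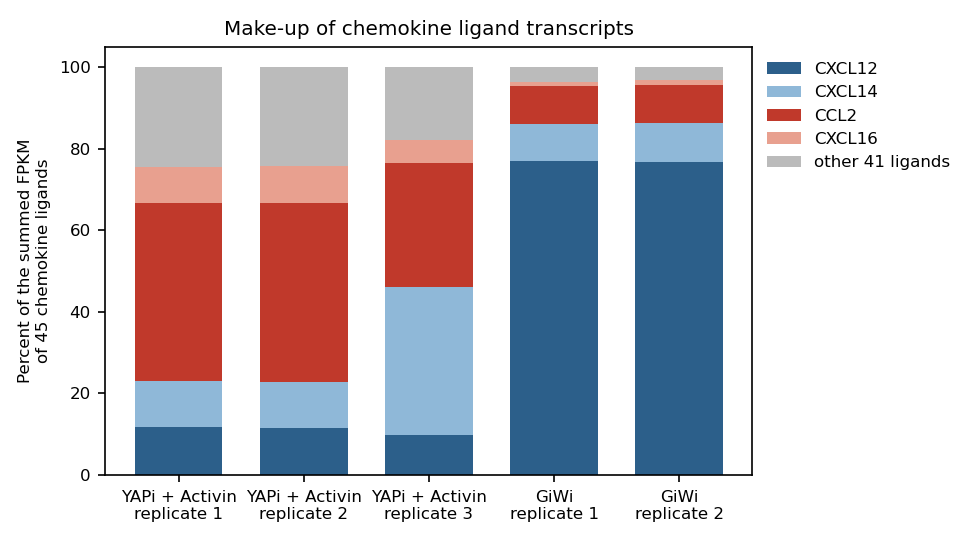
Share of the summed FPKM of 45 chemokine ligands (percent, y axis) taken by each named ligand in each of the 5 libraries (x axis, YAPi+Activin left of GiWi). CXCL12 fills 77.1 and 76.7% of the GiWi bars and 9.73 to 11.7% of the YAPi+Activin bars, in which CCL2 is the widest block in replicates 1 and 2 and CXCL14 in replicate 3.

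By level, CCL2 stood highest in YAPi+Activin replicates 1 and 2, with 67.2 and 65.6 FPKM, followed by CXCL12 (18.1 and 17.4 FPKM), CXCL14 (17.8 and 16.9 FPKM) and CXCL16 (14.0 and 13.5 FPKM), of which CXCL12 and CXCL14 lay within each other's spread. In replicate 3, CXCL14 came first with 66.9 FPKM and CCL2 had 56.2 FPKM. In GiWi, CXCL12 had 109.6 and 108.6 FPKM, ahead of CCL2 (13.3 and 13.4 FPKM) and CXCL14 (12.6 and 13.5 FPKM), which overlapped, and of CXCL16 (1.65 and 1.497 FPKM). CXCL12 ranked 2755, 2852 and 2758 by FPKM among all listed genes in YAPi+Activin, against 430 and 438 in GiWi. Receptors were scarcer than ligands. The 22 receptors summed to 19.5, 18.6 and 26.1 FPKM in YAPi+Activin, against 60.8 and 59.4 FPKM in GiWi, and ACKR3 alone made up 55.6, 54.7 and 81.4% of that sum in YAPi+Activin, against 94.2 and 94.6% in GiWi.

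**Figure D2:**
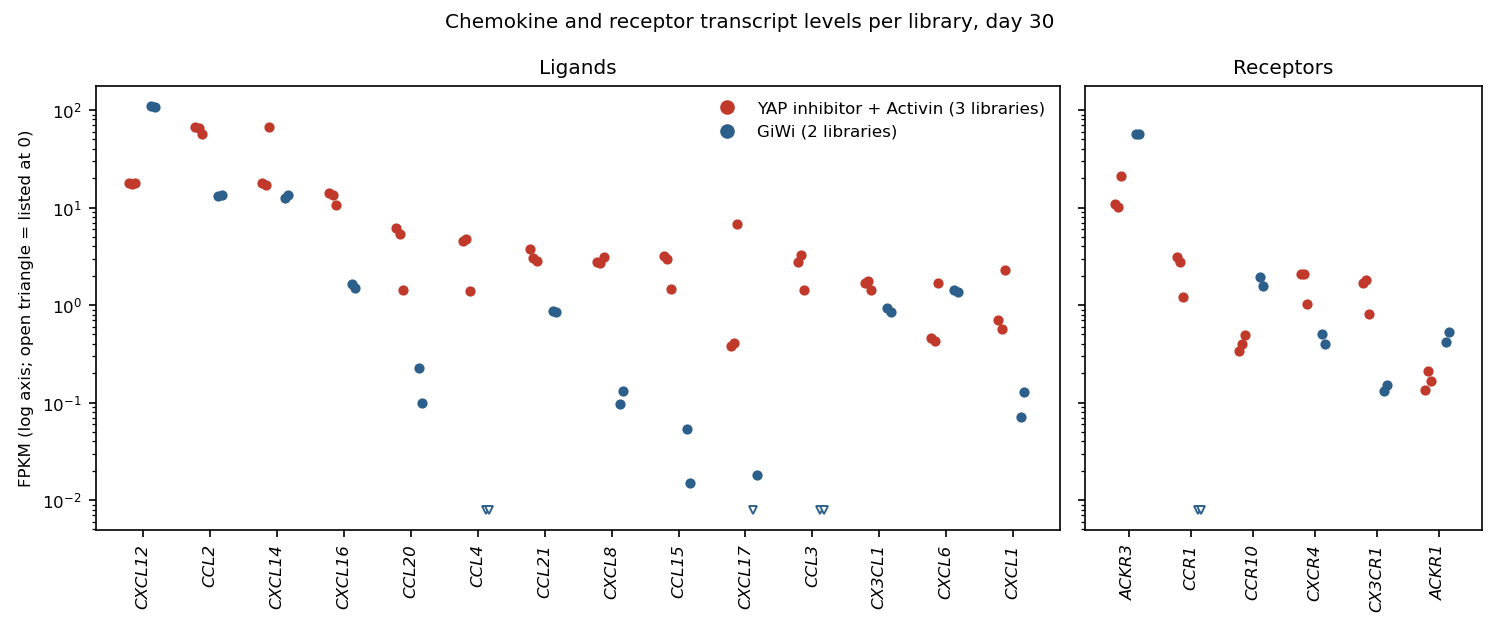
FPKM on a log axis of the ligands that reach 1 FPKM and the receptors that reach 0.4 FPKM as a group mean, 1 point per library (YAPi+Activin, 3 libraries; GiWi, 2 libraries), with open triangles for values listed at 0. CXCL12 and ACKR3 are the high points of GiWi, and CCR1, CCL3 and CCL4 are listed at 0 in both GiWi libraries.

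Of the 67 genes, 39 passed the count filter (28 ligands and 11 receptors). Of these, 30 rose, 4 fell and 5 did not pass the test, where 30.2% of all tested genes rose, 26.9% fell and 57.1% did either. All 3 YAPi+Activin libraries lay above both GiWi libraries for 31 genes, where 38.7% of all tested genes did so, and below them for 4, where 37.1% did (75.8% in either direction). The median log2 change was 3.14, while over all tested genes it was 0.01. Setting genes of 0 GiWi counts at their lower bounds could not move this median, since every bound lay above it. For 21 of the 39 genes a GiWi library held under 10 counts, so they passed the filter mainly through their YAPi+Activin counts, which favours genes that rose. Of these, 20 rose and CCR6 did not pass. Among the other 18, with 10 counts or more in both GiWi libraries, 10 rose, 4 fell and 4 did not pass. The count of risers and the median change are therefore descriptions of the set.

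The genes that fell were CXCL12, ACKR3, CCR10 and ACKR1. The 28 genes below the filter (17 ligands and 11 receptors) had at most 16.5 counts in any library. CCL17, CCR3, CCR8, CXCR3 and CXCR6 had 0 counts in every library, which allows up to 0.0742 CPM in the shallowest library and 0.0560 CPM in the deepest (3 counts, counting error only).

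**Figure D3:**
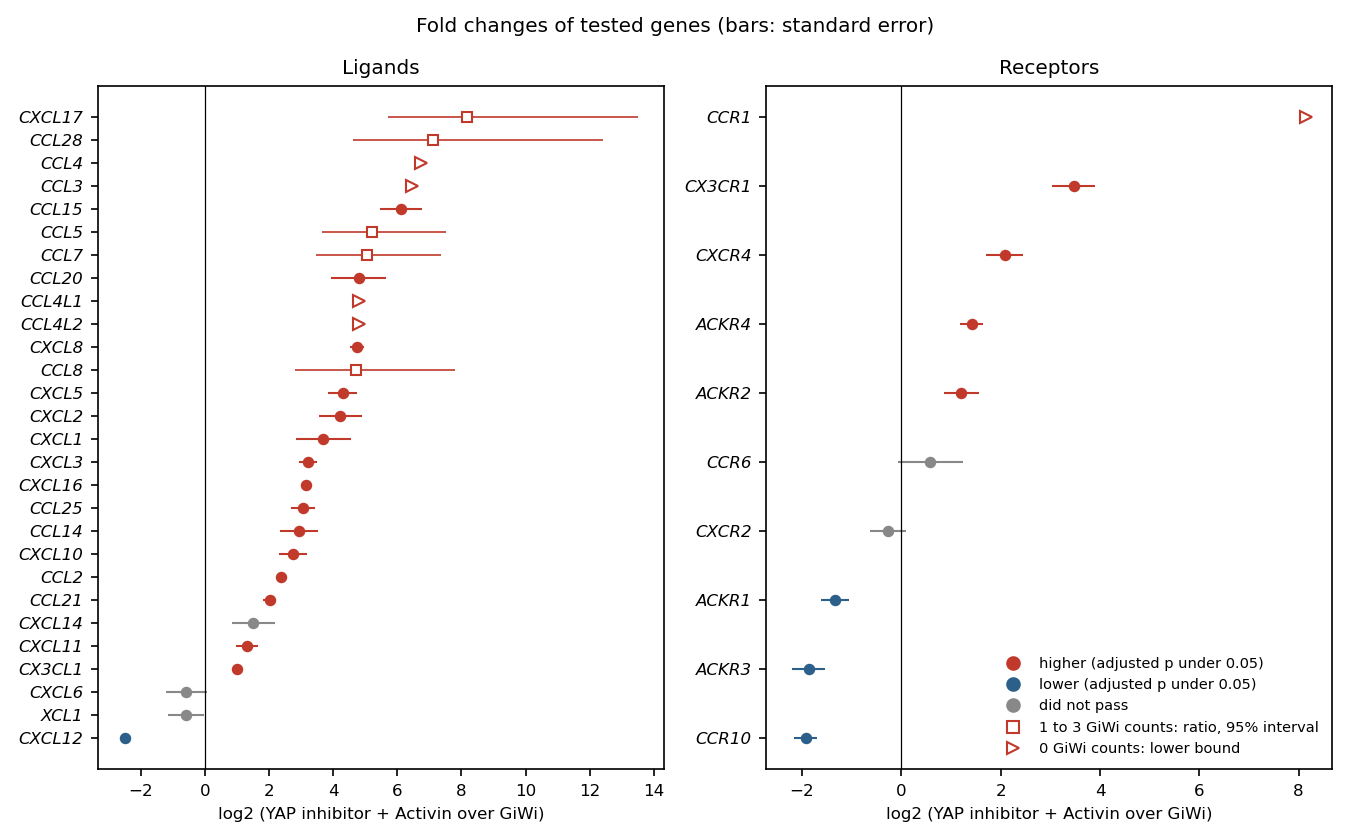
Log2 of YAPi+Activin over GiWi (x axis) for 38 tested genes, ligands on the left and receptors on the right, with bars for the standard error from edgeR. Open arrows are lower bounds for genes with 0 GiWi counts and open squares are count ratios with their 95% interval for genes with 1 to 3 GiWi counts. 4 genes lie below 0 and pass the test.

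CXCL12 (hg19 chr10:44872510-44880545, minus strand) was the ligand that fell. It had 43.8, 42.5 and 43.9 CPM in YAPi+Activin, against 238 and 244 CPM in GiWi, a log2 change of -2.47 ± 0.05 (edgeR adjusted p = 1.32e-05), or 5.56-fold lower. The 3 YAPi+Activin libraries lay close together, replicate 3 included, and far under both GiWi libraries. ACKR3 (CXCR7, the scavenging receptor of CXCL12 and CXCL11; hg19 chr2:237478380-237490994, plus strand) fell with it. ACKR3 had 28.5, 27.1 and 56.6 CPM in YAPi+Activin, against 135 and 137 CPM in GiWi, a log2 change of -1.87 ± 0.33 (edgeR adjusted p = 0.00525). Replicate 3 was the highest YAPi+Activin library and still lay under both GiWi libraries.

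CXCR4, the signalling receptor of CXCL12 (hg19 chr2:136871919-136873813, minus strand), went the other way. It had 4.33, 4.47 and 2.15 CPM in YAPi+Activin, against 0.933 and 0.792 CPM in GiWi, a log2 change of 2.08 ± 0.38 (edgeR adjusted p = 0.00598). Every YAPi+Activin library was above both GiWi libraries, with replicate 3 the nearest to them. Without GiWi replicate 2 the change was 1.96 and no longer passed (edgeR adjusted p = 0.0606; over all alternatives 3.94e-45 to 0.0606). Per length, CXCL12 exceeded CXCR4 by a FPKM ratio of 8.71, 8.25 and 17.7 in YAPi+Activin, against 219 and 273.5 in GiWi, while its FPKM ratio to ACKR3 was 1.67, 1.71 and 0.844 in YAPi+Activin, against 1.91 and 1.93 in GiWi. In replicate 3, CXCL12 thus lay below ACKR3. The epicardial and mesothelial marker list, whose cells line the heart surface, was also lower in sum. Of its 10 genes, 6 fell and 1 rose, where 26.9% of all tested genes fell and 30.2% rose. Its summed level was 585.7 to 1108 CPM in YAPi+Activin, against 2082 to 2170 CPM in GiWi, with no marker at 0. Its highest value in YAPi+Activin was that of replicate 3, and without replicate 3 the list held 9 genes that fell. On the log2 scale ACKR3 lay 1.03 and CXCL12 0.03 above the mean of replicates 1 and 2 in replicate 3. The median of the epicardial and mesothelial marker list there was 0.95. These are values of 1 library of 1 group. Fibroblast markers, another list of stromal genes, went the other way in sum. They came to 125800 to 150300 CPM in YAPi+Activin, against 63340 to 63760 CPM in GiWi. Of the 14 fibroblast markers, 9 rose and 4 fell. The part of either list in the falls of CXCL12 and ACKR3 was not tested.

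The remaining CXC ligands outside the neutrophil group were CXCL16, CXCL14 and CXCL17. CXCL16, a membrane-bound chemokine and scavenger receptor made by macrophages and other cells, had 37.1, 37.4 and 28.6 CPM in YAPi+Activin, against 3.92 and 3.86 CPM in GiWi, a log2 change of 3.14 ± 0.15 (edgeR adjusted p = 8.32e-05). Its receptor, CXCR6, had 0 counts in every library. CXCL14, a chemokine of epithelia and stroma, had 43.9, 42.3 and 167 CPM in YAPi+Activin, against 28.0 and 31.0 CPM in GiWi. All 3 YAPi+Activin libraries were above GiWi, but replicate 3 was far above the other two, and the change of 1.52 ± 0.68 did not pass (edgeR adjusted p = 0.106). Without replicate 3 it was 0.55 and passed (edgeR adjusted p = 3.99e-08; over all alternatives up to 0.320). CXCL17, a chemokine of mucosal surfaces, had 0.425, 0.470 and 7.91 CPM in YAPi+Activin, against 0 and 0.0193 CPM in GiWi. With 1 GiWi count in all, the count ratio was 291.6 (95% interval 52.0 to 11550, counting error only), and most of it came from replicate 3. CXCL17 passed the test (edgeR adjusted p = 0.0399), but not without GiWi replicate 1 (0.184) or GiWi replicate 2 (0.163), and over all alternatives its adjusted p was 4.78e-12 to 0.218.

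The ELR-type CXC ligands act on neutrophils through CXCR1 and CXCR2. Of their 6 tested genes 5 rose, where 30.2% of all tested genes rose. For CXCL1, CXCL2, CXCL3 and CXCL5 a GiWi library held under 10 counts. The filter thus nearly fixed their direction, and the count of risers is no support for a shared rise. The ELR-type genes lie in a group on chromosome 4q, and their promoters are shown here because they share a motif. Sequences are the 100 bases before the transcription start from RefSeq (build GRCh38.p14), 5' to 3' on the gene's strand, with every match to GGAANTTCC, an NF-kB type motif of 9 letters that reads the same on both strands, in capitals. CXCL8 is at chr4:73740469-73740568 (plus strand), CXCL1 at chr4:73869293-73869392 (plus strand), CXCL2 at chr4:74099196-74099295 (minus strand), CXCL3 at chr4:74038690-74038789 (minus strand), CXCL5 at chr4:73998678-73998777 (minus strand) and CXCL6 at chr4:73836578-73836677 (plus strand).
CXCL8: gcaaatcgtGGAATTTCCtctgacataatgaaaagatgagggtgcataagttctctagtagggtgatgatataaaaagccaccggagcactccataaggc
CXCL1: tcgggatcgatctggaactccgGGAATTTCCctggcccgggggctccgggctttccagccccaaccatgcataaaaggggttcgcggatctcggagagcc
CXCL2: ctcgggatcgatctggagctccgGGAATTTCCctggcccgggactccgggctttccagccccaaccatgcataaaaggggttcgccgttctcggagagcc
CXCL3: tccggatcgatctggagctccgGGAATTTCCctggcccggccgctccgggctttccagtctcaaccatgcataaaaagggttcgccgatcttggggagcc
CXCL5: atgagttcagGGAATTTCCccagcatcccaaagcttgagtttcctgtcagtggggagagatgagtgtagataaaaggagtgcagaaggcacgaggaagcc
CXCL6: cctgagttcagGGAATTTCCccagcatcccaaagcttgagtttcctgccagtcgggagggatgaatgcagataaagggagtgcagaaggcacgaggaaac

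All 6 carry GGAATTTCC, with its first base 91 bases before the start in CXCL8, 78 in CXCL1, 77 in CXCL2, 78 in CXCL3, 90 in CXCL5 and 89 in CXCL6. Aligned on the motif, the CXCL1 and CXCL3 windows were identical at 90 of 100 bases and the CXCL5 and CXCL6 windows at 91 of 99. Of 27305 RefSeq promoters, 227 (0.831%) hold GGAANTTCC in the 250 bases before the start. Promoters were matched for 45 of the 67 genes, and 9 of these hold it: the 6 above, CXCL10, CXCL11 and CCL1. A match describes the letters of the window and is no evidence of a bound factor.

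CXCL8 (interleukin-8) rose most evenly. It had 5.93, 5.88 and 6.72 CPM in YAPi+Activin, against 0.187 and 0.271 CPM in GiWi, a log2 change of 4.74 ± 0.22 (edgeR adjusted p = 7.15e-05), with the 3 YAPi+Activin libraries close together. CXCL5 had 2.51, 2.49 and 1.29 CPM in YAPi+Activin, against 0.112 and 0.0966 CPM in GiWi (log2 change 4.29 ± 0.46, edgeR adjusted p = 9.01e-04). CXCL3 had 1.32, 1.18 and 1.04 CPM in YAPi+Activin, against 0.131 and 0.116 CPM in GiWi (log2 change 3.23 ± 0.28, edgeR adjusted p = 4.73e-04). For both, replicate 3 was the lowest YAPi+Activin library and stayed above GiWi.

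CXCL2 had 0.935, 0.870 and 2.08 CPM in YAPi+Activin, against 0.0933 and 0.0386 CPM in GiWi (log2 change 4.23 ± 0.66, edgeR adjusted p = 0.0035), and 4.96 without GiWi replicate 1. CXCL1 had 1.02, 0.846 and 3.41 CPM in YAPi+Activin, against 0.0933 and 0.174 CPM in GiWi (log2 change 3.69 ± 0.86, edgeR adjusted p = 0.0142), and 2.80 without YAPi+Activin replicate 3. The call of CXCL1 did not pass without GiWi replicate 1 (edgeR adjusted p = 0.103) or GiWi replicate 2 (0.0764), and over all alternatives its adjusted p was 6.29e-14 to 0.103. CXCL6 carries nearly the same promoter window as CXCL5 but not its change: it had 0.956, 0.893 and 3.51 CPM in YAPi+Activin, against 2.67 and 2.61 CPM in GiWi. Replicates 1 and 2 lay under GiWi and replicate 3 above it, and the change of -0.57 ± 0.62 did not pass (edgeR adjusted p = 0.469). Without replicate 3 it was -1.51 and passed (edgeR adjusted p = 6.68e-08; over all alternatives up to 0.765). CXCL1, CXCL2 and CXCL3, and CXCL5 and CXCL6, are close paralogs that may share reads.

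Their receptors were scarce. CXCR2 had 0.489, 0.423 and 0.346 CPM in YAPi+Activin, against 0.354 and 0.657 CPM in GiWi, with overlapping groups and a log2 change of -0.26 ± 0.36 that did not pass (edgeR adjusted p = 0.562). CXCR1 was below the filter. Markers of neutrophils and mast cells summed to 24.8 to 95.1 CPM in YAPi+Activin, against 5.31 to 5.80 CPM in GiWi, with replicate 3 the highest. Of their 7 tested genes, 4 rose and 1 fell, where 30.2% of all tested genes rose and 26.9% fell. Fewer of them rose without either GiWi library. S100A8 had 5.52, 6.20 and 27.2 CPM in YAPi+Activin, against 0.448 and 0.271 CPM in GiWi. S100A9 had 9.75, 9.85 and 57.9 CPM in YAPi+Activin, against 0.224 and 0.135 CPM in GiWi. Together they made up most of the marker sum in YAPi+Activin but little of it in GiWi. The mast cell genes TPSAB1 and TPSB2 were at 0 in every library. The part of such cells in these values was not tested.

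CXCL10 and CXCL11 are interferon-induced ligands that attract T cells through CXCR3. The 100 bases of the CXCL10 promoter from base 200 to base 101 before the start (RefSeq, GRCh38.p14, chr4:76023598-76023697 (minus strand)) are shown because the same motif lies farther from the start there, at base 176.
CXCL10: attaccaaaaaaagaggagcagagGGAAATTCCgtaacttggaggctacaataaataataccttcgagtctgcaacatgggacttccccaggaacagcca

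CXCL10 had 1.76, 1.76 and 0.940 CPM in YAPi+Activin, against 0.168 and 0.271 CPM in GiWi, a log2 change of 2.75 ± 0.43 (edgeR adjusted p = 0.00336). CXCL11 had 0.765, 0.564 and 0.643 CPM in YAPi+Activin, against 0.336 and 0.193 CPM in GiWi, a log2 change of 1.30 ± 0.34 (edgeR adjusted p = 0.0214). Both were above GiWi in all 3 YAPi+Activin libraries. The call of CXCL11 did not pass without YAPi+Activin replicate 1 (edgeR adjusted p = 0.0617) or GiWi replicate 2 (0.140), over a range of 2.42e-04 to 0.140. The third ligand, CXCL9, was below the filter. Of 20 T cell and NK cell markers, 7 were tested, 4 rose and 2 fell, where 30.2% of all tested genes rose and 26.9% fell. The 20 markers summed to 98.6 to 120.7 CPM in YAPi+Activin, against 433.7 to 436.1 CPM in GiWi. Since 10 of the 20 were at 0 in both GiWi libraries, the GiWi sum rests on the remaining markers and does not describe the list as a whole. CD2, CD3E, GNLY and GZMB were at 0 in every library. Only 1 marker rose without YAPi+Activin replicate 2, and 2 without YAPi+Activin replicate 1, while 1 fell without either GiWi replicate. The part of such cells was not tested.

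Among CC ligands, 14 were tested and 14 rose in edgeR's test, where 30.2% of all tested genes rose. For 12 of the 14 (all but CCL2 and CCL21) a GiWi library held under 10 counts, so the filter nearly fixed the direction and the count is no support for a shared rise. The monocyte attractants CCL2, CCL7 and CCL8 act mainly through CCR2. CCL2 (hg19 chr17:32582296-32584220, plus strand) had 62.7, 61.8 and 53.0 CPM in YAPi+Activin, against 11.1 and 11.6 CPM in GiWi, a log2 change of 2.38 ± 0.10 (edgeR adjusted p = 5.42e-05). CCL7 had 0.935, 1.10 and 0.791 CPM in YAPi+Activin, against 0.0187 and 0.0386 CPM in GiWi, a count ratio of 33.2 (95% interval 11.1 to 163). CCL8 stayed under 0.7 CPM and had a count ratio of 26.3 (95% interval 7.001 to 222). In all 3 genes every YAPi+Activin library was above both GiWi libraries. CCR2, in contrast, had 0.0212, 0.0235 and 0 CPM in YAPi+Activin, against 0 and 0 CPM in GiWi, under the floor of 3 counts in each library.

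Another group, which takes in ligands of CCR1, included genes with no GiWi counts at all. CCL3 (MIP-1 alpha) had 2.76, 3.29 and 1.43 CPM in YAPi+Activin, against 0 and 0 CPM in GiWi, at least 88.6-fold higher over a floor of 3 counts in the GiWi pair (edgeR adjusted p = 0.00136). CCL4 (MIP-1 beta) had 3.803, 4.04 and 1.16 CPM in YAPi+Activin, against 0 and 0 CPM in GiWi, at least 107.5-fold higher (edgeR adjusted p = 0.0038). In both, replicate 3 was the lowest of the YAPi+Activin libraries. CCL4L1 and CCL4L2 are near-identical copies of CCL4 with the same counts, 0.935, 1.03 and 0.371 CPM in YAPi+Activin, against 0 and 0 CPM in GiWi, so their separate levels are uncertain. CCL3L1 and CCL3L3, copies of CCL3, were below the filter and may share its reads. CCL5 (RANTES) had 1.10, 1.36 and 0.692 CPM in YAPi+Activin, against 0.0373 and 0.0193 CPM in GiWi, a count ratio of 37.3 (95% interval 12.5 to 183).

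CCL15, which binds CCR1, had 4.31, 4.09 and 1.98 CPM in YAPi+Activin, against 0.0746 and 0.0193 CPM in GiWi, a log2 change of 6.11 ± 0.65 (edgeR adjusted p = 8.85e-04). With only 5 GiWi counts the size was loose: 7.29 without GiWi replicate 1 and 5.48 without GiWi replicate 2, both past the test. CCL14 stayed under 0.6 CPM and rose by 2.94 ± 0.60 (edgeR adjusted p = 0.00867), by 4.11 without GiWi replicate 1 and, no longer passing, by 2.30 without GiWi replicate 2 (edgeR adjusted p = 0.0621; over all alternatives 2.32e-07 to 0.0621). A readthrough transcript listed as CCL15-CCL14 overlaps both genes and may share their reads.

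The other CC ligands are known from epithelia and lymphatic vessels. CCL20, a ligand of CCR6 made by gut epithelium, had 6.42, 5.73 and 1.48 CPM in YAPi+Activin, against 0.224 and 0.0966 CPM in GiWi, a log2 change of 4.80 ± 0.85 (edgeR adjusted p = 0.0055). It was 5.51 without GiWi replicate 1 and, no longer passing, 4.32 without GiWi replicate 2 (edgeR adjusted p = 0.0562; over all alternatives 1.18e-123 to 0.0562). CCL25, which guides lymphocytes to the small intestine and thymus, had 0.701, 0.752 and 0.494 CPM in YAPi+Activin, against 0.0746 and 0.0773 CPM in GiWi (log2 change 3.05 ± 0.37, edgeR adjusted p = 0.00143). CCL28, a mucosal ligand of CCR10, had 0.850, 0.893 and 2.27 CPM in YAPi+Activin, against 0 and 0.0193 CPM in GiWi, a count ratio of 137.7 (95% interval 24.4 to 5471). CCL21, the ligand of CCR7 made by lymphatic endothelium, had 4.19, 3.38 and 3.19 CPM in YAPi+Activin, against 0.877 and 0.889 CPM in GiWi (log2 change 2.02 ± 0.20, edgeR adjusted p = 6.79e-04). Replicate 3 was thus the lowest YAPi+Activin library for CCL20, CCL25 and CCL21 and the highest for CCL28.

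Gut epithelium markers were also higher: 11 of 12 rose, where 30.2% of all tested genes rose. The markers summed to 335.8 to 698.3 CPM in YAPi+Activin, against 14.8 to 16.3 CPM in GiWi, with the lowest YAPi+Activin value in replicate 3. None of the 12 was at 0 in both GiWi libraries. How many of them held under 10 counts in a GiWi library was not counted, so the count of 11 is a description of the list. Endothelial markers summed to 631 to 659.5 CPM in YAPi+Activin, against 343 to 356 CPM in GiWi. Of 14 tested endothelial markers, 7 were higher and 4 lower, where 30.2% of all tested genes rose and 26.9% fell. Without either GiWi replicate, 3 were higher and 1 lower, and 3 were higher with limma on log2(FPKM + 1). The part of either cell type was not tested. CX3CL1 (fractalkine, a membrane-bound ligand) had 7.10, 7.45 and 5.93 CPM in YAPi+Activin, against 3.51 and 3.30 CPM in GiWi (log2 change 1.00 ± 0.14, edgeR adjusted p = 0.0024), with no overlap. XCL1 stayed under 0.5 CPM, overlapped between groups and did not pass (log2 change -0.59 ± 0.55, edgeR adjusted p = 0.398).

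Among signalling receptors, CCR1 gave the widest contrast. CCR1 (hg19 chr3:46243200-46249832, minus strand) had 494.5, 395 and 166.5 counts in YAPi+Activin libraries, against 0 and 0 counts in GiWi libraries. That is 10.5, 9.28 and 4.10 CPM in YAPi+Activin, and at least 284.9-fold above the floor of 3 counts in the GiWi pair (edgeR adjusted p = 0.00132). CX3CR1, the fractalkine receptor of monocytes and tissue macrophages, had 6.59, 7.05 and 3.165 CPM in YAPi+Activin, against 0.466 and 0.541 CPM in GiWi (log2 change 3.47 ± 0.43, edgeR adjusted p = 0.00157). In both receptors, replicate 3 had the lowest YAPi+Activin value, still above both GiWi libraries. CCR10, the receptor of CCL27 and CCL28, fell: it had 0.531, 0.635 and 0.791 CPM in YAPi+Activin, against 2.72 and 2.24 CPM in GiWi (log2 change -1.93 ± 0.24, edgeR adjusted p = 0.00145). CCR6 stayed under 0.4 CPM and did not pass (log2 change 0.59 ± 0.66, edgeR adjusted p = 0.478), while without YAPi+Activin replicate 3 it was 0.98 and just passed (edgeR adjusted p = 0.0498; over all alternatives 0.0498 to 0.829).

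The other atypical receptors split. ACKR1, the Duffy antigen of red cells and venules, had 0.340, 0.541 and 0.420 CPM in YAPi+Activin, against 0.952 and 1.24 CPM in GiWi (log2 change -1.33 ± 0.28, edgeR adjusted p = 0.0105). Without GiWi replicate 2 it was -1.14 and did not pass (edgeR adjusted p = 0.0954; over all alternatives 3.64e-06 to 0.0954). ACKR4, a scavenger of CCL19, CCL21 and CCL25, had 1.17, 1.18 and 0.940 CPM in YAPi+Activin, against 0.410 and 0.406 CPM in GiWi (log2 change 1.42 ± 0.23, edgeR adjusted p = 0.00422). ACKR2, a scavenger of inflammatory CC ligands, had 0.722, 0.658 and 1.14 CPM in YAPi+Activin, against 0.410 and 0.309 CPM in GiWi (log2 change 1.21 ± 0.35, edgeR adjusted p = 0.0299). The groups did not overlap for any of the 3, but the call of ACKR2 did not pass without GiWi replicate 1 (edgeR adjusted p = 0.0999) or GiWi replicate 2 (0.179), over a range of 0.00506 to 0.179.

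Macrophage markers were also higher in YAPi+Activin. All 30 markers of that list rose in edgeR's test, where 30.2% of all tested genes rose. Their summed level was 847, 869 and 374 CPM in YAPi+Activin, against 14.0 and 15.9 CPM in GiWi, and C1QB, CD163, LILRB2, MRC1, TREM2 and TYROBP were at 0 in both GiWi libraries. Markers at 0 in GiWi passed the count filter only through their YAPi+Activin counts, which fixed their direction. The count of 30 is therefore a description of the list. Within YAPi+Activin, replicate 3 gives a second look at these markers. The median of log2(replicate 3 over the mean of the other two) was -1.31 for macrophage markers and -0.0037 for all tested genes. It was likewise -1.31 for cardiomyocyte markers, 15 of 15 of them below 0, and -1.27 for gut epithelium markers, 11 of 12 below 0, so the lower values of replicate 3 were not particular to macrophage markers. Of the 39 tested genes, 12 lay at -1 or lower in replicate 3, among them CCR1, CCR6, CX3CR1, CXCR4, CCL3, CCL4, CCL4L1, CCL4L2, CCL15, CCL20 and XCL1. A further 7 lay at 1 or higher (ACKR3, CCL28, CXCL1, CXCL2, CXCL6, CXCL14 and CXCL17), and 20 lay between.

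The genes were also set against the summed macrophage markers of the same library. CCR1 came to 1.24, 1.07 and 1.10% of that sum in YAPi+Activin replicates 1 to 3, CX3CR1 to 0.778, 0.811 and 0.846%, CXCR4 to 0.512, 0.514 and 0.575%, and CCL15 to 0.509, 0.470 and 0.528%. These 4 genes kept a similar share in replicate 3. CCL3 came to 0.326, 0.378 and 0.383%, CCL4 to 0.449, 0.465 and 0.310%, and CCL5 to 0.130, 0.157 and 0.185%. Further from a fixed share, CCL2 came to 7.41, 7.11 and 14.2%, CXCL16 to 4.38, 4.30 and 7.63%, and CXCL8 to 0.700, 0.676 and 1.80%. CCL20 had 0.758, 0.660 and 0.396%. Since cardiomyocyte and gut markers fell as much in replicate 3, a steady share does not tie a gene to the macrophage list. These are 3 libraries of 1 group, and the part of macrophages in any of these values was not tested.

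**Figure D4:**
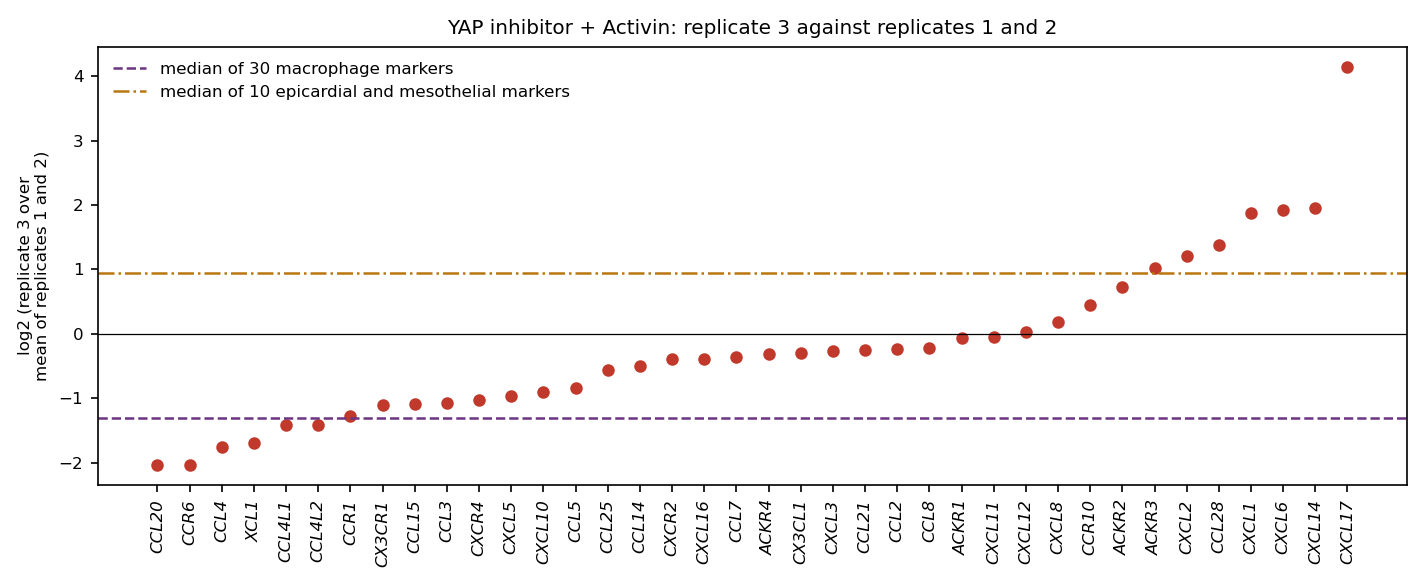
Log2 of YAPi+Activin replicate 3 over the mean of replicates 1 and 2 (y axis) for 38 tested genes in rising order (x axis), with lines at the median of the macrophage and the epicardial and mesothelial marker lists. The cardiomyocyte median, also -1.31, is not drawn. CCR1, CX3CR1 and CCL3 lie near the macrophage line at -1.31, and CXCL17 is the highest point at 4.14.

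Many of these genes lie in clusters. On chromosome 17 (hg19 chr17:32582296-34641846), 18 CC ligand genes were listed, of which 10 were tested and 10 rose in edgeR's test, while 8 had too few counts. For 9 of the 10 (all but CCL2) a GiWi library held under 10 counts, so that the filter nearly fixed this count too, and 30.2% of all tested genes rose. On chromosome 4 (hg19 chr4:74606223-78532988), 10 CXC ligand genes were listed, of which 8 were tested, 7 rose, and CXCL6 did not pass. There a GiWi library held under 10 counts for 5 of the 8. In the chromosome 17 cluster, CCL4 was at least 107.5-fold higher, while CCL1, CCL11, CCL13 and CCL18, for example, had too few counts to test. These untested neighbours summed to 1, 29, 17 and 8 rounded counts in YAPi+Activin, against 0 in GiWi, so untested does not mean unchanged. CCL16, also untested, had 0 in YAPi+Activin against 2 in GiWi.

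**Figure D5:**
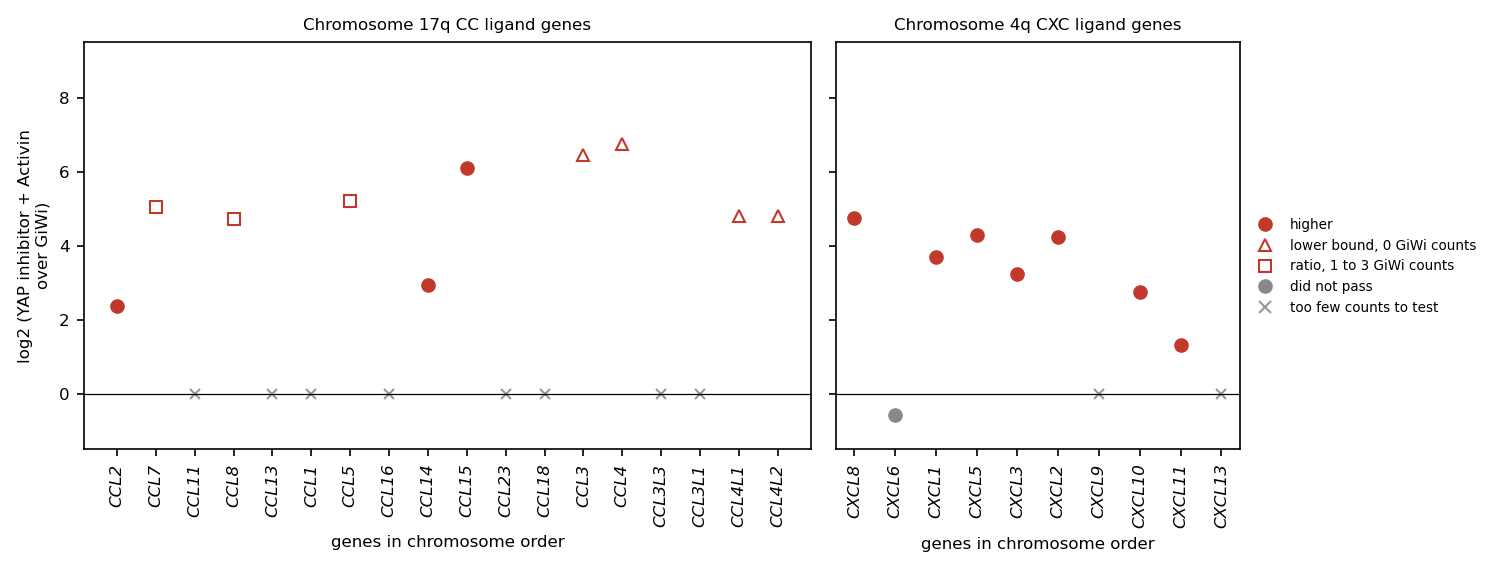
Log2 of YAPi+Activin over GiWi (y axis) for chemokine ligand genes on chromosomes 17q and 4q, in chromosome order (x axis). Open triangles are lower bounds for genes with 0 GiWi counts, and open squares are ratios for genes with 1 to 3 GiWi counts. Crosses are genes with too few counts to test, drawn at 0 only to mark their place. No tested gene of either cluster fell.

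Genes that act around chemokines were counted from lists of known genes. For comparison, 30.2% of all tested genes rose and 26.9% fell. Of 14 tested proteases and binding partners that modify chemokines, 9 rose, 2 fell and 3 did not pass, with a median log2 change of 1.09. DPP4 (CD26), which trims and inactivates CXCL12, had 103, 107 and 103 CPM in YAPi+Activin, against 46.0 and 43.4 CPM in GiWi (log2 change 1.22 ± 0.06, edgeR adjusted p = 7.63e-05). MMP2 and MMP9, which also cleave CXCL12, rose by 1.19 ± 0.06 (edgeR adjusted p = 9.28e-05) and 5.76 ± 0.28 (edgeR adjusted p = 7.69e-05). MMP14 (-0.37 ± 0.09, edgeR adjusted p = 0.0158) and ADAM17, which sheds CX3CL1 (-0.37 ± 0.08, edgeR adjusted p = 0.0106), fell slightly, and over the alternatives the number that fell was 0 to 5, with 0 without GiWi replicate 1.

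Of 32 tested inducers and regulators of inflammatory chemokines, 24 rose and 8 did not pass. 0 fell in edgeR's test, at an unadjusted p under 0.05 as well, and 0 fell in DESeq2. However, 27 rose and 2 fell without YAPi+Activin replicate 3, and 29 rose and 2 fell with the replicate number as a block. With library size alone as the scaling, 21 rose and 1 fell. Their median log2 change was 0.69. IL6 had 6.59, 7.003 and 7.99 CPM in YAPi+Activin, against 1.19 and 1.12 CPM in GiWi (log2 change 2.63 ± 0.15, edgeR adjusted p = 1.36e-04), and IRF1, a transcription factor of the interferon response, rose by 1.64 ± 0.14 (edgeR adjusted p = 4.04e-04). TNF had 0.722, 0.588 and 0.321 CPM in YAPi+Activin, against 0.0560 and 0.0773 CPM in GiWi (log2 change 2.99 ± 0.52, edgeR adjusted p = 0.0052). The NF-kB subunit genes NFKB1 (0.18 ± 0.08, edgeR adjusted p = 0.0952) and RELA (-0.08 ± 0.10, edgeR adjusted p = 0.538) did not pass.

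Of 50 tested genes of chemokine receptor signalling, 22 rose, 11 fell and 17 did not pass, with a median log2 change of 0.14. Of all tested genes, 30.2% rose, 26.9% fell and 57.1% did either. A larger share of this list thus rose and a smaller share fell, a difference that was not tested. RGS1, which damps signalling of chemokine receptors in leukocytes, had 8.95, 8.70 and 6.13 CPM in YAPi+Activin, against 0.336 and 0.271 CPM in GiWi (log2 change 4.70 ± 0.27, edgeR adjusted p = 1.37e-04). GNAI1, a G protein subunit, rose by 0.67 ± 0.06 (edgeR adjusted p = 4.62e-04), and the number of genes that fell was 5 without either GiWi replicate. With library size alone as the scaling, 17 rose and 15 fell. The number that fell was 7 without YAPi+Activin replicate 1, and also without YAPi+Activin replicate 2. Close relatives outside the symbol rule also rose: PPBP, a platelet CXC ligand, by 2.24 ± 0.44 (edgeR adjusted p = 0.00791) and CCRL2, an atypical receptor, by 4.63 ± 0.74 (edgeR adjusted p = 0.00375).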

How the data were processed

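Polyadenylated RNA of 5 H1 libraries was sequenced from a stranded mRNA kit on an Illumina HiSeq instrument, per the labels. Named without a role in the submitters' processing notes are hg19, HOMER, STAR 2.5.1, edgeR 3.16.1 and FastQC 0.11.5. Whether reads were counted by strand was not given in the sources used here. The exon counts that the authors deposited are multiples of 0.5, of which 34.6% are not whole, and were treated like estimated counts and rounded to whole numbers. The FPKM values were deposited by the authors in a second table, and for 14 of the 67 genes that table lists another transcript. Totals and factors of the libraries set the precision: 1 count is 0.0187 to 0.0247 CPM.

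The test was edgeR 4.0.16 (R 4.3.3), quasi-likelihood, TMM factors, filterByExpr (minimum count 10, minimum total 15), Benjamini-Hochberg adjustment at 0.05 over all genes tested, with a common dispersion of 0.0232 and 3 residual degrees of freedom. Genes with 0 GiWi counts were set against a floor of 3 counts over the pair, and those with 1 to 3 were given a ratio with an exact 95% interval; both cover counting error only. Named genes were those reaching a mean of 0.5 CPM in a group. From the other lists, up to 4 genes with the smallest p and up to 3 with the highest level could be named; genes added to these were chosen after their values were seen, as were the 4 weaker members CCL8, CCL14, CCR6 and XCL1. For 1 gene that the rules select, the result is not reported here, and the gene remains in the counts. The members and all lists were chosen with earlier results of these data known. The comparison was repeated with DESeq2 1.42.0, with limma 3.58.1 on log2(FPKM + 1) and log2(FPKM + 0.1), with RLE factors or none, with no filter or a filter of 1 CPM in 2 libraries, with the replicate number as a block, and without each library. The fit was tested on data simulated with the common dispersion for every gene and no outlying library. It recovered 71.7% of log2 changes of 1 and 98% of log2 changes of 2, with 12 false calls among 17407 genes. The real libraries differ from that setting, since YAPi+Activin replicate 3 stood apart. Promoters were matched by symbol to RefSeq. Figures were drawn with matplotlib 3.10.9.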

Additional observations from a re-analysis of the deposited data

How the results depend on the processing

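The count of chemokine and receptor genes that rose was 30 with TMM, RLE and library size alone and with DESeq2, 36 of 62 without a filter, and 18 of 24 with at least 1 CPM in 2 libraries, which tests fewer genes. With limma on FPKM it was 27 and 28. Leaving out each library in turn gave 23 to 32 genes that rose and 3 to 5 that fell. Library size alone moved the median log2 change of all genes to -0.18, and 35.8% of all calls were then higher, against 52.9% with TMM and 38.0 and 39.7% with limma on FPKM. The 4 genes that fell also fell under each of these scalings. Over 13 alternatives and 39 genes, 467 of 490 values kept their direction and call, 17 lost the call, 5 gained it and 1 turned: CXCR2, at -0.26 and not past the test, was at 0.24 without GiWi replicate 2 and at -0.65 without GiWi replicate 1. Of the 34 called genes, 26 kept their call under all alternatives that could give a value. The replicate number as a block gave 31 genes that rose and 5 that fell. It leaves YAPi+Activin replicate 3 with no partner, and the labels do not say that numbers pair the libraries. The differences between replicates 1 and 2 correlated between the groups at r = 0.065 across genes. Genes with 0 to 3 GiWi counts have only bounds or wide intervals. The groups of 3 and 2 libraries were too small to test for single outlying libraries, although YAPi+Activin replicate 3 stood apart by its correlations.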
